A study of Gallus gallus with 15 samples.

Results

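Genes of autophagy and of vacuolar protein sorting were measured in abdominal adipose tissue of chickens. They were chosen by symbol in the array annotation: the numbered ATG genes, ULK1 to ULK4, the GABARAP, MAP1LC3 and WIPI families, BNIP3 and BNIP3L, SQSTM1, NBR1, OPTN, TAX1BP1, BECN1, UVRAG, PIK3C3, PIK3R4, RB1CC1, AMBRA1, VMP1, TFEB, LAMP1, LAMP2 and every numbered VPS gene. The rule matched 71 symbols with 181 probe sets. A probe set was removed when it lay below 3 on the log2 scale on 5 or more of the 15 arrays, which left 119 probe sets of 66 genes, out of 9243 genes in all. Of these 66 genes, 38 lack a VPS symbol and 28 carry one. ATG14, PIK3C3, ULK2, VPS37A and VPS29L matched but had no probe set above the filter.

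The birds were male broilers of the ISA915 line, 16 to 17 days old, with 5 birds in each of 3 groups and 1 Affymetrix GeneChip Chicken Genome Array per bird. Fed birds ate freely and fasted birds were without feed for 5 h, and both received normal porcine serum. Insulin-neutralized birds kept their feed but received porcine serum against insulin, given at 0, 2 and 4 h. The study compared fasting with the loss of insulin action in birds that still ate. Values are log2 GCRMA values as deposited, and a difference of 1 is a 2-fold change. A gene was called changed in a comparison at a Benjamini-Hochberg adjusted p under 0.05 in limma over all 18612 probe sets kept. Where several probe sets read 1 gene, the one with the highest mean stands for it, and 34 of the 66 genes had 2 or more.

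Autophagy encloses part of the cytoplasm in a double membrane and delivers it to the lysosome. A kinase complex starts the process, a lipid kinase complex marks the membrane, ATG2 and ATG9 proteins help it to grow, and a conjugation machinery attaches ATG8 proteins, which cargo receptors bind. Fasting and low insulin signalling are known to favour autophagy through lower mTOR activity, and much of that control acts on proteins rather than on mRNA. VPS genes, first found in yeast, encode tethers, coats and lipid transfer proteins that move cargo between Golgi, endosomes and lysosome. The roles given below are known chiefly from yeast and mammalian cells.

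After 5 h of fasting, 11 of the 66 genes were higher than in fed birds (16.7%) and 2 were lower (3.03%). Over all 9243 genes, 4.93% were called higher and 5.77% lower in the same comparison. All 11 genes but VPS11 and VPS13B lack a VPS symbol: cargo receptors BNIP3, BNIP3L, SQSTM1 and NBR1, ATG8 proteins MAP1LC3A and GABARAPL1, and RB1CC1, UVRAG and ATG2A. VPS25 and VPS26A were lower. The median log2 fold change of the 66 genes was -0.04, beside -0.05 over all genes, so the called genes stood out from a list that was centred near 0. The members were chosen with results of these data known, and no test of the list as a whole was made.

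In insulin-neutralized birds, 1 gene of 66, ULK3, was called lower than in fed birds and 0 were called higher, where 0.314% and 0.281% of all genes were called. At an unadjusted p under 0.05 there were 18 member genes (27.3%) in that comparison, beside 20.1% of all genes, and 23 member genes (34.8%) in fasted vs. fed birds, beside 27.4%. Directly against fasted birds, insulin-neutralized birds had 6 genes lower (BNIP3, SQSTM1, MAP1LC3A, GABARAPL1, UVRAG and ULK3) and 1 higher (VPS26A). Over all genes 2.67% were lower and 1.69% higher there. At an unadjusted p under 0.05, 13 member genes (19.7%) and 18.4% of all genes differed between insulin-neutralized and fasted birds. Fed birds serve in the first 2 of these comparisons and fasted birds in the direct comparison as well, so the comparisons are not independent of each other.

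**Figure D1:**
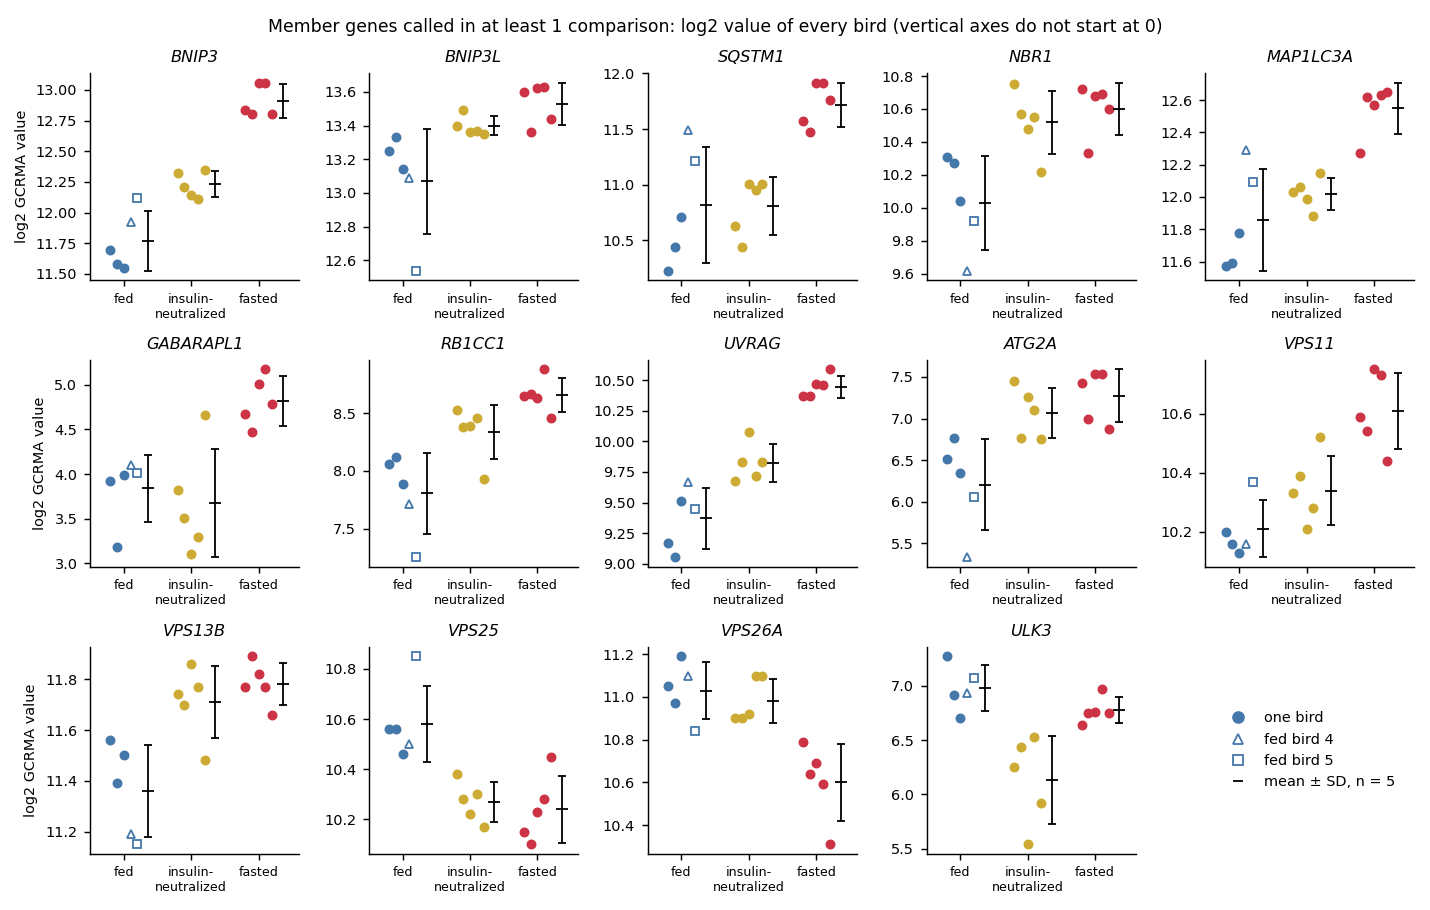
The log2 value of each bird is plotted for the 14 member genes called in at least 1 comparison, with fed, insulin-neutralized and fasted birds side by side and the mean ± SD of 5 birds at the right of each group. UVRAG, on the probe set plotted, rises without overlap from fed through insulin-neutralized to fasted birds, but the first 2 groups nearly touch. Fed and insulin-neutralized birds overlap in every plotted gene but BNIP3L, UVRAG, ULK3 and VPS25. Of these only ULK3 was called between those groups on the probe set plotted. The share of all genes without overlap is not given here. Fed birds 4 and 5 (open symbols) often lie at an edge of the fed group.

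Fed birds 4 and 5 stood apart from the other birds, and values without them are given below. Their arrays had a mean correlation with the other arrays of 0.955 and 0.958, against 0.963 to 0.977 elsewhere, and the poly-A control transcripts added to the RNA read highest on them, at 9.84 and 9.65 against 8.78 to 9.43. The median SD of the members was 0.298 among fed, 0.156 among fasted and 0.157 among insulin-neutralized birds, beside 0.315, 0.221 and 0.189 over all genes. The actin control, whose signal at the 3′ end over the 5′ end rises as RNA degrades, differed by 0.90 to 1.44 in fed, 0.94 to 1.18 in fasted and 1.22 to 1.52 in insulin-neutralized birds. The GAPDH control, read the same way, was not higher in insulin-neutralized birds. It differed by 0.77 to 1.06 in fed, 0.81 to 1.02 in fasted and 0.70 to 0.95 in insulin-neutralized birds. Of the adipocyte markers, 11 of 12 were measured, with FABP4 at 16.16 or above in every bird. Their mean was 12.72 to 12.91 in fed, 11.82 to 12.44 in fasted and 11.89 to 12.55 in insulin-neutralized birds. In fasted vs. fed birds PPARG, CEBPA and DGAT2 were called lower (-0.82, -1.48 and -3.40) and PNPLA2 higher (0.50). The uncalled adipocyte markers ran from -0.93 (SCD) to 0.28 (CIDEC) there, with FABP4 at 0.08 and ADIPOQ at 0.00. Mesothelial markers ranged from 6.32 in fed bird 5 to 11.62 in fed bird 4, with 5 of 10 measured and 0 called. In fasted vs. fed birds, macrophage (8 of 8 measured), T cell (5 of 8) and erythrocyte (3 of 8) markers had 0 called, endothelial markers (7 of 8) had CDH5 higher at 0.44, and of the skeletal muscle markers (2 of 8) ACTA1 was lower by 1.10 in fasted birds. Of these markers, insulin-neutralized birds had DGAT2 called lower than fed birds by 2.61, and against fasted birds CIDEC lower by 0.84 and ACTA1 higher by 1.25. The part of these shifts in the results below was not tested, and in bulk tissue fewer cells of a type cannot be told apart from less RNA per cell.

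Among the cargo receptors, 4 of 6 genes were higher after fasting, beside 4.93% of all genes. BNIP3, a mitochondrial outer membrane protein that binds ATG8 proteins and marks mitochondria for removal, read 11.69, 11.58, 11.55, 11.92 and 12.12 in fed birds 1 to 5. It read 12.32, 12.21, 12.14, 12.11 and 12.35 in insulin-neutralized birds and 12.84, 12.80, 13.06, 13.06 and 12.80 in fasted birds. Every fasted bird lay above every bird of the other groups, and the insulin-neutralized birds overlapped only fed bird 5. Fasted birds exceeded fed birds by 1.14 ± 0.12 (SE), or 2.21-fold, with a limma adjusted p of 4.5e-05. Insulin-neutralized birds were lower than fasted birds by 0.69 (adjusted p = 0.0043) and differed from fed birds by 0.46 (adjusted p = 0.089). A second BNIP3 probe set gave 1.58 (adjusted p = 2.2e-05), -0.94 (adjusted p = 0.0028) and 0.64 (adjusted p = 0.067) for the same comparisons in limma. Without fed birds 4 and 5, the difference of insulin-neutralized from fed birds was 0.62 and passed the test (limma adjusted p = 0.029). The study also measured BNIP3 by quantitative PCR and reports a significant rise over the fed group with either treatment. Fasting gave the larger rise there, and the gap between the 2 treatments was significant as well.

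BNIP3L, its close relative with the same task, read 13.25, 13.33, 13.14, 13.09 and 12.54 in fed birds 1 to 5, 13.40, 13.49, 13.36, 13.37 and 13.35 in insulin-neutralized birds and 13.60, 13.36, 13.62, 13.63 and 13.44 in fasted birds. Fed birds lay below both other groups, with fed bird 5 far below the rest. The rise in fasted birds was 0.46 ± 0.13 (SE; limma adjusted p = 0.036) and the difference in insulin-neutralized birds 0.33 (adjusted p = 0.23). Leaving out fed bird 3 or 4 or fasted bird 1, 3, 4 or 5 ended the call, with limma adjusted p-values up to 0.087, and the difference was 0.29 without fed birds 4 and 5 (limma adjusted p = 0.051).

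SQSTM1, also called p62, gathers ubiquitin-tagged protein and is itself degraded with it. Its values were 10.23, 10.44, 10.71, 11.49 and 11.21 in fed birds 1 to 5, 10.63, 10.44, 11.01, 10.95 and 11.01 in insulin-neutralized birds and 11.57, 11.47, 11.91, 11.91 and 11.76 in fasted birds. Fasted birds lay above all insulin-neutralized birds and above all fed birds but bird 4. They exceeded fed birds by 0.91 ± 0.22 (SE), or 1.87-fold (limma adjusted p = 0.017), and insulin-neutralized birds were lower than fasted birds by 0.92 (limma adjusted p = 0.028). Insulin-neutralized and fed birds had nearly equal means, 10.81 and 10.82, with a 95% interval of the difference from -0.47 to 0.45, while without fed birds 4 and 5 the difference was 0.34 (limma adjusted p = 0.51). The other SQSTM1 probe sets were called in the same directions, at 1.18 and 0.89 in fasted vs. fed birds and -1.04 and -0.96 in insulin-neutralized vs. fasted birds. Without fed birds 4 and 5 the difference of fasted from fed birds was 1.26. The call against insulin-neutralized birds on the first probe set was lost without fasted bird 3, 4 or 5 or insulin-neutralized bird 1, 2 or 4, with limma adjusted p-values up to 0.073, and on the probe set at -1.04 it stayed without any single bird. On the probe set at -0.96 it ended when fasted bird 3, 4 or 5 or any insulin-neutralized bird but the fifth was left out. The call of 0.89 there ended when fed bird 1, 2 or 3 or fasted bird 3, 4 or 5 was left out.

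NBR1, a receptor for ubiquitin-tagged cargo built like SQSTM1, had values of 10.31, 10.27, 10.04, 9.62 and 9.92 in fed birds 1 to 5, 10.75, 10.57, 10.48, 10.55 and 10.22 in insulin-neutralized birds and 10.72, 10.33, 10.68, 10.69 and 10.60 in fasted birds. All fasted birds lay above all fed birds, by little between fed bird 1 and fasted bird 2, and fed birds 4 and 5 were the lowest. The rise was 0.57 ± 0.14 (SE; limma adjusted p = 0.019), with 0.49 in insulin-neutralized birds (adjusted p = 0.13). A second NBR1 probe set also gave 0.57 and missed the threshold (limma adjusted p = 0.11), and a further one stood at nearly 1 value (within 0.01) on 11 of 15 arrays. Without fed birds 4 and 5, NBR1 differed by 0.40 (limma adjusted p = 0.070). OPTN and TAX1BP1, the remaining receptors, were not called, at -0.34 and 0.33 in fasted birds (limma adjusted p = 0.12 and 0.11).

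Of the ATG8 proteins, the small tags on the autophagosome membrane, 2 of 5 were higher after fasting, beside 4.93% of all genes. MAP1LC3A read 11.57, 11.59, 11.78, 12.29 and 12.09 in fed birds 1 to 5, 12.03, 12.06, 11.99, 11.88 and 12.15 in insulin-neutralized birds and 12.27, 12.62, 12.57, 12.63 and 12.65 in fasted birds. Fasted birds lay above all insulin-neutralized birds, and only fasted bird 1 fell below fed bird 4. MAP1LC3A rose by 0.68 ± 0.14 (SE), or 1.61-fold, in fasted birds (limma adjusted p = 0.0059). It was lower by 0.53 in insulin-neutralized birds than after fasting (limma adjusted p = 0.044), and insulin-neutralized birds differed from fed birds by 0.16 (95% interval -0.13 to 0.45). The second probe set gave 0.92, -0.72 and 0.20, with limma adjusted p-values of 0.0011, 0.012 and 0.46. The call of the first probe set against insulin-neutralized birds was lost without fasted bird 2, 3, 4 or 5, fed bird 3 or any insulin-neutralized bird, to a highest limma adjusted p of 0.099, while that of the second held without any 1 bird. MAP1LC3B, the relative most used as an autophagy marker, was not called, at 0.07 in fasted vs. fed birds (95% interval -0.20 to 0.33).

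GABARAPL1 was read by 1 probe set near the lower end of the scale. It stood at 3.92, 3.18, 3.99, 4.10 and 4.01 in fed birds 1 to 5, 3.82, 3.51, 3.11, 3.29 and 4.66 in insulin-neutralized birds and 4.67, 4.47, 5.01, 5.17 and 4.78 in fasted birds. Fasted birds lay above every fed bird and above all insulin-neutralized birds but bird 5. The differences were 0.98 from fed (limma adjusted p = 0.033) and -1.14 in insulin-neutralized vs. fasted birds (adjusted p = 0.027). At values this low a difference on the GCRMA scale may understate the change, and both calls were fragile. The first ended when fed bird 1 or 2 or fasted bird 1, 3, 4 or 5 was left out (limma adjusted p up to 0.083), and the second without fasted bird 3, 4 or 5 or insulin-neutralized bird 1, 2, 3 or 4 (up to 0.072). The study's own gene list names this probe set GABARAPL3, so its assignment to GABARAPL1 is uncertain. GABARAPL2 was not called, at -0.10 in fasted vs. fed birds, nor was MAP1LC3C, which had the widest spread of the 66 representative probe sets in fed birds (SD 0.921, values 3.40 to 5.66).

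The kinase complex that starts autophagy was listed together with AMBRA1 and the related kinases ULK3 and ULK4. Of the 7 genes measured in this list, 1 was higher after fasting, beside 4.93% of all genes. RB1CC1 (FIP200), the scaffold of the complex, read 8.06, 8.12, 7.89, 7.71 and 7.25 in fed birds 1 to 5. It read 8.53, 8.38, 8.39, 8.46 and 7.93 in insulin-neutralized birds and 8.65, 8.67, 8.63, 8.88 and 8.46 in fasted birds. Fasted birds lay above every fed bird. RB1CC1 rose by 0.85 ± 0.16 (SE), or 1.80-fold (limma adjusted p = 0.0045), and insulin-neutralized birds differed from fed birds by 0.53 (adjusted p = 0.15) with only bird 5 inside the fed range. The other RB1CC1 probe sets gave 0.37 and 0.57 and were not called (limma adjusted p = 0.40 and 0.48), with fed bird 5 at 3.92 on the second of them against 6.66 to 7.25 in the other fed birds.

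ULK3, a kinase related to ULK1, was the member called lower in insulin-neutralized than in fed birds. Its values were 7.27, 6.91, 6.70, 6.93 and 7.07 in fed birds 1 to 5, 6.25, 6.44, 5.54, 6.53 and 5.92 in insulin-neutralized birds and 6.64, 6.75, 6.76, 6.97 and 6.75 in fasted birds. Every insulin-neutralized bird lay below every other bird. ULK3 was lower by 0.84, or 1.79-fold, than in fed birds (limma adjusted p = 0.046) and by 0.64 than in fasted birds (adjusted p = 0.048), while fasted and fed birds differed by -0.20 (adjusted p = 0.51). Both calls lay at the threshold: the first was lost on leaving out any single bird other than fed bird 3, with limma adjusted p-values up to 0.12, and the second on leaving out any single bird other than fed bird 1 or insulin-neutralized bird 2 or 4, up to 0.11. ULK1, the kinase of the complex itself, was not called, at -0.23 in fasted and -0.02 in insulin-neutralized vs. fed birds.

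ATG13, a subunit through which mTOR restrains the complex, differed by 0.38 in fasted vs. fed birds and missed the threshold (limma adjusted p = 0.096). Its values were 10.25, 10.34, 10.50, 11.09 and 10.91 in fed birds 1 to 5, 10.93 to 11.09 in fasted birds and 10.61 to 10.72 in insulin-neutralized birds. Fed birds 4 and 5 lay with the fasted birds, apart from the other fed birds. Without them the difference was 0.64 (limma adjusted p = 3.1e-04), and insulin-neutralized birds, at -0.34 from fasted birds, were then called lower than these (limma adjusted p = 0.0082). The difference of -0.34 uses no fed bird and was the same with all birds (limma adjusted p = 0.21). Its p-value depends on fed birds because all groups share 1 estimate of the spread. ATG13 is given in this detail because its values were seen to depend on these birds.

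The class III phosphatidylinositol 3-kinase complex, which marks the growing membrane with a lipid, had 3 genes measured. UVRAG, a subunit that directs this kinase to endosomes and to maturing autophagosomes, read 9.17, 9.05, 9.51, 9.67 and 9.45 in fed birds 1 to 5. It read 9.68, 9.83, 10.08, 9.72 and 9.83 in insulin-neutralized birds and 10.37, 10.37, 10.47, 10.46 and 10.59 in fasted birds. The 3 groups did not overlap on this probe set, by little between fed bird 4 and insulin-neutralized bird 1. UVRAG rose by 1.08 ± 0.12 (SE), or 2.12-fold, in fasted birds (limma adjusted p = 9.1e-05), insulin-neutralized birds were lower than fasted birds by 0.63 (adjusted p = 0.0092), and they differed from fed birds by 0.46 (adjusted p = 0.097). A second UVRAG probe set gave 0.67 in fasted vs. fed birds (limma adjusted p = 0.0016) and a called rise of 0.53 in insulin-neutralized birds (adjusted p = 0.048), which was lost on leaving out any single bird other than fed bird 4 or fasted bird 2 (up to 0.12). Between insulin-neutralized and fasted birds that probe set differed by -0.14 (limma adjusted p = 0.56), and these groups overlapped on it.

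BECN1 and PIK3R4, the other subunits measured, were not called at -0.02 and 0.44 in fasted vs. fed birds (limma adjusted p = 0.97 and 0.12). BECN1, the regulatory core of the complex, ranged from 9.58 in fed bird 4 to 11.30 in fed bird 2. Without fed birds 4 and 5 it differed by -0.48 in fasted birds (limma adjusted p = 0.037). A second BECN1 probe set varied less, at 9.31 to 9.71 in fed birds. With all birds it gave -0.14 in fasted vs. fed birds and was not called (limma adjusted p = 0.46).

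Of 5 genes of membrane growth, 1, ATG2A by the array annotation, was higher after fasting, beside 4.93% of all genes. ATG2A, a protein that carries lipid from the endoplasmic reticulum to the new membrane, read 6.51, 6.77, 6.35, 5.33 and 6.06 in fed birds 1 to 5, 7.45, 6.77, 7.26, 7.10 and 6.76 in insulin-neutralized birds and 7.43, 6.99, 7.53, 7.54 and 6.88 in fasted birds. Fed birds lay below all fasted birds, with fed bird 4 the lowest. The rise was 1.07 ± 0.24 (SE), or 2.10-fold (limma adjusted p = 0.014), and it was 0.73 without fed birds 4 and 5 (limma adjusted p = 0.044). Insulin-neutralized birds differed from fed birds by 0.86 (95% interval 0.34 to 1.38, limma adjusted p = 0.13) and from fasted birds by -0.21 (95% interval -0.73 to 0.31). The study's own gene list names the probe set ATG2B, the paralog of ATG2A, so its assignment to ATG2A is uncertain. All other probe sets annotated to ATG2A were removed by the filter, and none of them read above 3.16 on any array. ATG9A, VMP1, WIPI1 and WIPI2 were not called in any comparison, and the largest of their differences was that of WIPI2 between insulin-neutralized and fasted birds, at -0.45 (limma adjusted p = 0.081). With fed birds 4 and 5 left out of the fit, that difference was unchanged and was called (limma adjusted p = 0.033), as the groups share 1 estimate of the spread.

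The conjugation machinery had 9 genes measured and 0 called in any comparison. Over all genes 10.7% were called in fasted vs. fed, 0.595% in insulin-neutralized vs. fed and 4.36% in insulin-neutralized vs. fasted birds. Beside these shares, 0 of 9 does not set the conjugation machinery apart. Its log2 fold changes ran from -0.32 to 0.19 in fasted and from -0.48 to 0.19 in insulin-neutralized vs. fed birds. The largest in fasted birds was that of ATG4B, a protease that trims ATG8 proteins, with 10.42, 10.23, 9.92, 10.60 and 10.83 in fed birds 1 to 5, 9.76 to 10.12 in insulin-neutralized and 9.96 to 10.15 in fasted birds. Fed bird 3 lay below and the other fed birds lay above every fasted bird (-0.32, limma adjusted p = 0.18). ATG12, a tag protein, the enzyme ATG7 that activates it and ATG5, the protein that receives it, differed by -0.09, 0.10 and 0.02 in fasted vs. fed birds.

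The lysosomal membrane proteins LAMP1 and LAMP2 and the transcription factor TFEB, which drives lysosomal and autophagy genes in mammalian cells, were not called. Their log2 fold changes were 0.01, -0.03 and 0.01 in fasted vs. fed birds, with 95% intervals of -0.20 to 0.23, -0.61 to 0.55 and -0.29 to 0.32. LAMP2, with 7.88 to 9.03 in fed, 8.09 to 8.88 in fasted and 8.23 to 9.49 in insulin-neutralized birds, varied within groups by more than between them.

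**Figure D2:**
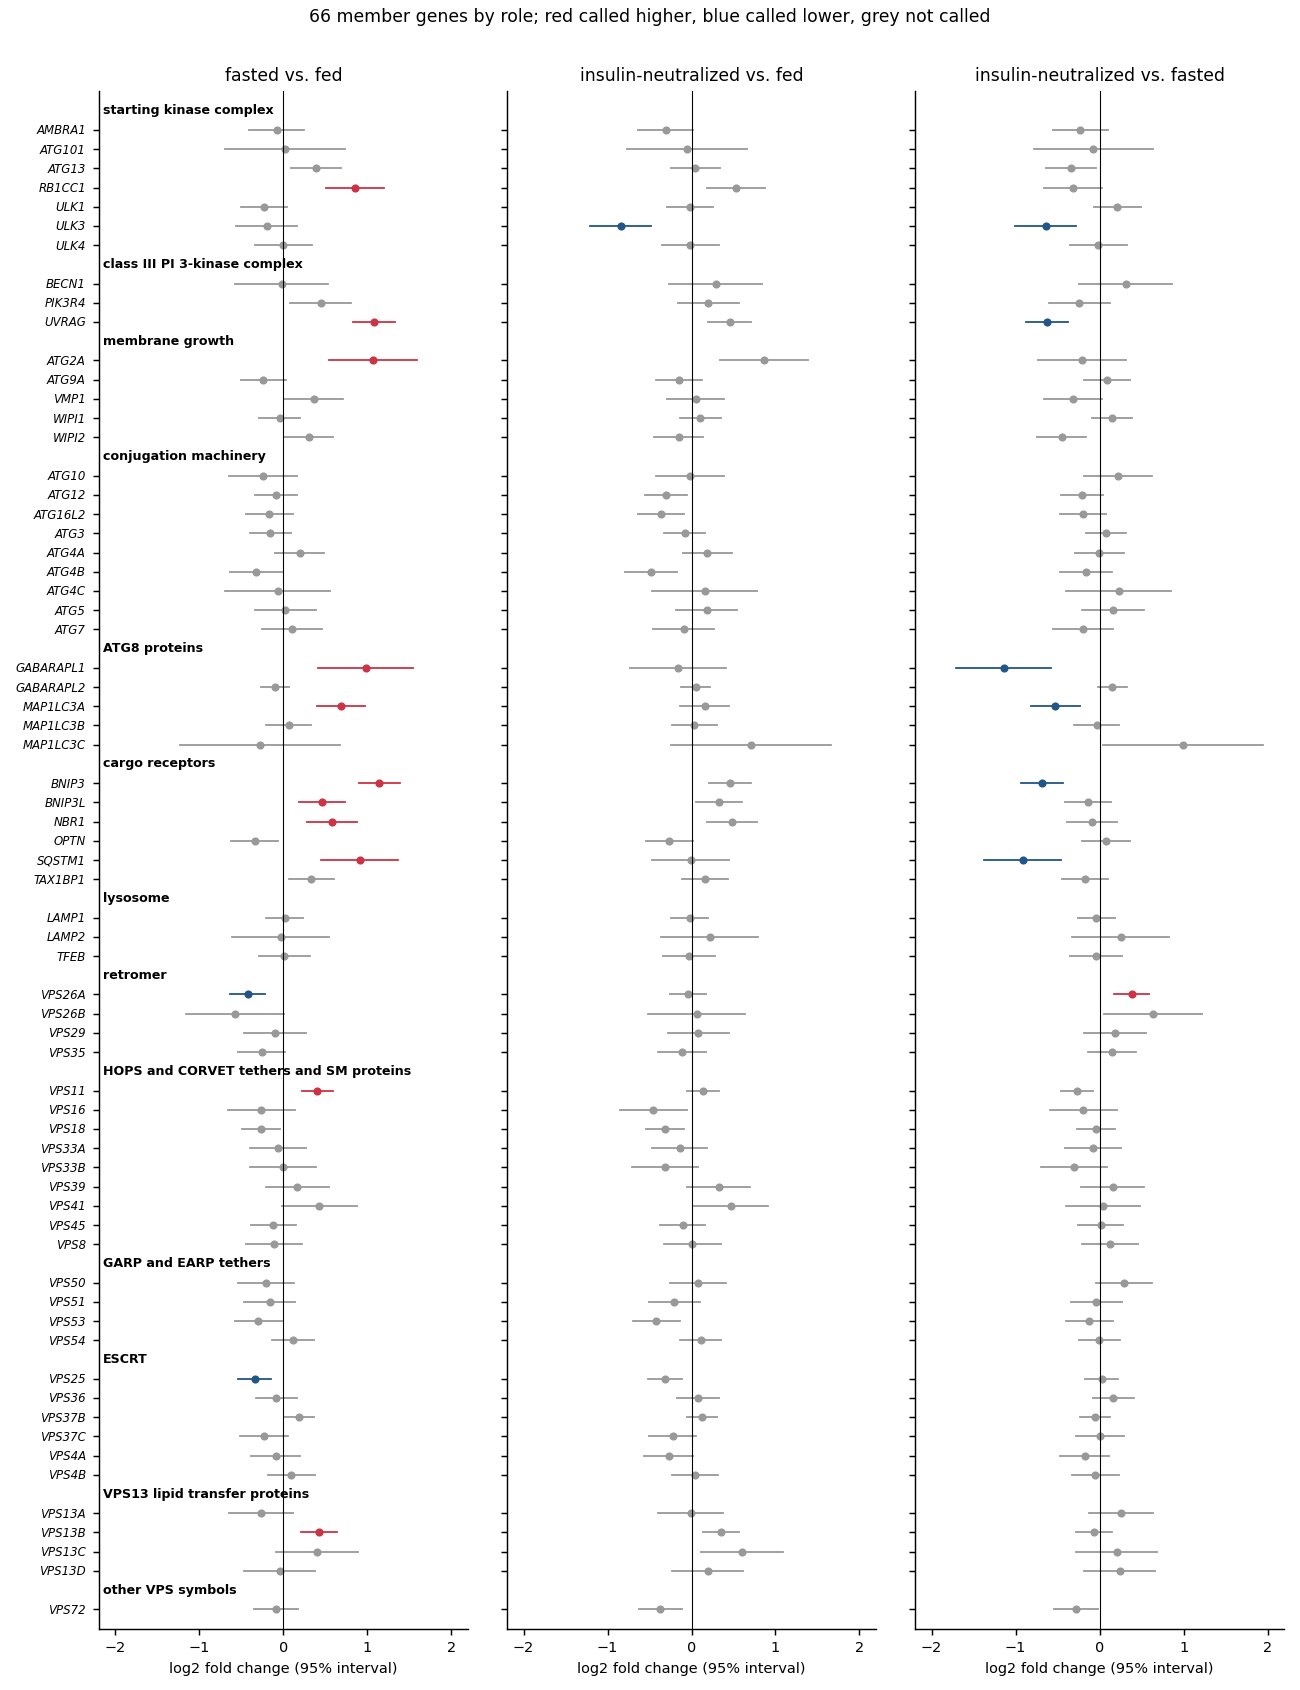
Log2 fold changes of all 66 member genes with 95% limma intervals are plotted by role for fasted vs. fed, insulin-neutralized vs. fed and insulin-neutralized vs. fasted birds, with called genes in red (higher) or blue (lower). Of the 13 genes called in fasted vs. fed birds, 6 are cargo receptors or ATG8 proteins, at 0.46 to 1.14. All 9 genes of the conjugation machinery are grey in every panel. With 10.7% of all genes called in fasted vs. fed birds, 0 of 9 does not set them apart.

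Among the 28 VPS genes, 2 were higher and 2 lower in fasted vs. fed birds. These shares, 7.14% each way, lie near the 4.93% higher and 5.77% lower over all genes. VPS26A, a subunit of the retromer coat that returns receptors from endosomes, read 11.05, 10.97, 11.19, 11.10 and 10.84 in fed birds 1 to 5, 10.90, 10.90, 10.92, 11.10 and 11.10 in insulin-neutralized birds and 10.79, 10.64, 10.69, 10.59 and 10.31 in fasted birds. Fasted birds lay below every bird of both other groups. VPS26A was lower by 0.43 ± 0.10 (SE) than in fed birds (limma adjusted p = 0.016) and higher by 0.38 in insulin-neutralized birds than after fasting (adjusted p = 0.048), a call that was lost on leaving out any single bird other than fed bird 4 or 5 or fasted bird 1 (up to 0.11). VPS26B, VPS29 and VPS35, the other retromer subunits, had differences of -0.57, -0.10 and -0.26 in fasted vs. fed birds, none of which passed the test. A second VPS29 probe set had the opposite sign, at 0.21 (limma adjusted p = 0.43). Without fed birds 4 and 5, VPS35 differed by -0.44 and was called (limma adjusted p = 0.041).

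VPS11, a core subunit shared by the HOPS and CORVET tethers of lysosome and early endosome, read 10.20, 10.16, 10.13, 10.16 and 10.37 in fed birds 1 to 5, 10.33, 10.39, 10.21, 10.28 and 10.52 in insulin-neutralized birds and 10.59, 10.54, 10.75, 10.73 and 10.44 in fasted birds. Fasted birds lay above every fed bird, and fed bird 5 was nearest to them. The rise was small, 0.41 ± 0.09 (SE; limma adjusted p = 0.0098), and insulin-neutralized birds differed from fed birds by 0.14 (adjusted p = 0.42). The other 8 genes of this group were not called. VPS45, which guides membrane fusion, had 1 of its 3 probe sets called lower in fasted birds (-0.43, limma adjusted p = 0.042), with 7.83, 7.93, 7.81, 8.23 and 8.21 in fed birds 1 to 5 and 7.46, 7.37, 7.47, 7.79 and 7.75 in fasted birds. Its probe set with the highest mean gave -0.12, and without fed birds 4 and 5 the called one gave -0.29 (limma adjusted p = 0.17). That call also ended without any 1 of 9 single birds, namely numbers 2, 4 and 5 of the fed, 1, 2 and 3 of the fasted and 2, 3 and 5 of the insulin-neutralized group.

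VPS25, a subunit of the ESCRT-II complex that sorts ubiquitin-tagged receptors into endosomal vesicles, read 10.56, 10.56, 10.46, 10.50 and 10.85 in fed birds 1 to 5, 10.38, 10.28, 10.22, 10.30 and 10.17 in insulin-neutralized birds and 10.15, 10.10, 10.23, 10.28 and 10.45 in fasted birds. Fed birds lay above both other groups, by little over fasted bird 5. It was lower by 0.34 ± 0.09 (SE) in fasted birds (limma adjusted p = 0.032) and the difference of insulin-neutralized from fed birds was -0.32 (adjusted p = 0.14). The call was lost without fed bird 1 or 5 or fasted bird 1, 2, 3 or 4 (limma adjusted p up to 0.073), and it gave -0.29 without fed birds 4 and 5 (limma adjusted p = 0.058). The other 5 ESCRT genes with a VPS symbol were not called.

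VPS13B, a lipid transfer protein of the Golgi, read 11.56, 11.39, 11.50, 11.19 and 11.15 in fed birds 1 to 5, 11.74, 11.70, 11.86, 11.77 and 11.48 in insulin-neutralized birds and 11.77, 11.89, 11.82, 11.77 and 11.66 in fasted birds. Fed birds lay below all fasted birds, with fed birds 4 and 5 lowest. The rise of 0.42 ± 0.10 (SE; limma adjusted p = 0.016) was 0.30 without those birds (limma adjusted p = 0.059). The 5 further VPS13B probe sets, all of much lower signal, ran from -0.74 to 0.34 and were not called. VPS53, a GARP and EARP tether subunit, had the largest difference of that group in fasted vs. fed birds, at -0.30 (limma adjusted p = 0.17), with 8.37 to 8.93 in fed, 8.08 to 8.51 in fasted and 7.88 to 8.32 in insulin-neutralized birds. Fed and fasted birds overlapped, and insulin-neutralized birds lay below every fed bird without a call (-0.42, limma adjusted p = 0.15). VPS72 carries the symbol but is a subunit of chromatin remodelling complexes, and it read 6.96 to 7.54 in fed, 6.98 to 7.24 in fasted and 6.52 to 7.06 in insulin-neutralized birds, without a call.

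**Figure D3:**
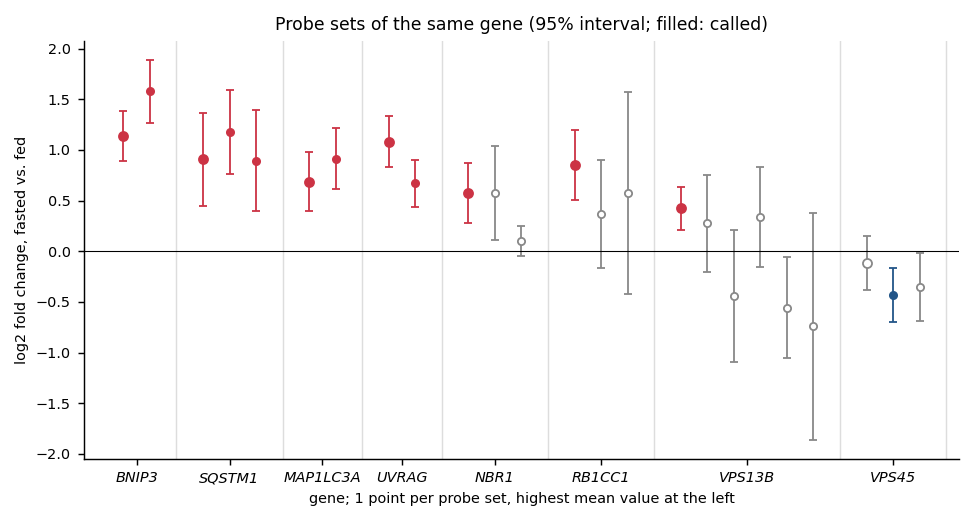
Log2 fold changes of fasted vs. fed birds with 95% limma intervals are shown for each probe set of 8 genes, with the probe set of the highest mean at the left of each gene and filled points for called ones. All probe sets of BNIP3, SQSTM1, MAP1LC3A and UVRAG are filled and above 0, while RB1CC1, NBR1 and VPS13B have 1 filled point each.

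Read by probe set instead of by gene, 16 of 119 member probe sets were higher and 3 lower in fasted vs. fed birds (16.0% together, beside 9.64% of all 18612). In insulin-neutralized vs. fed birds 2 were called (1.68%, beside 0.494% of all), and in insulin-neutralized vs. fasted birds 11 (9.24%, beside 4.06%). Of the 34 genes with several probe sets, 10, 10 and 8 had probe sets of both signs in the 3 comparisons. Some representatives carried little information, since VPS51 and ATG9A each read nearly 1 value (within 0.01) on 9 of the 15 arrays.

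A missed threshold does not show that a gene stayed the same. The 95% interval of the log2 fold change lay within a 1.5-fold change in either direction for 36 of the 53 uncalled genes in fasted vs. fed birds, and within 2-fold for 51. In insulin-neutralized vs. fed birds these numbers were 41 and 62 of 65. Of the 13 genes called in fasted vs. fed birds, 7 changed by at least 1.5-fold. The share of all called genes that did so is not given here.

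**Figure D4:**
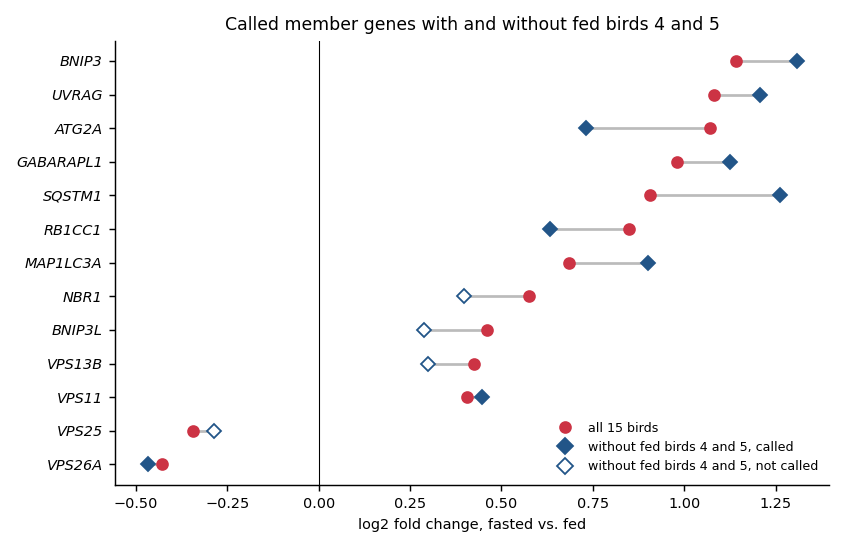
Each row gives the log2 fold change of fasted vs. fed birds for 1 of the 13 called genes with all 15 birds (circles) and without fed birds 4 and 5 (diamonds, filled where still called). All 13 genes keep their sign, SQSTM1 moves from 0.91 to 1.26 and ATG2A from 1.07 to 0.73, and the open diamonds are BNIP3L, NBR1, VPS13B and VPS25.

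Without fed birds 4 and 5, 12 member genes were called in fasted vs. fed birds, of which 9 were among the 13. The share of all genes called in that fit is not given here, so this count does not set members apart from other genes. Fed birds 4 and 5 had the highest fed values of BNIP3, SQSTM1, MAP1LC3A and ATG13 and the lowest of BNIP3L, NBR1, RB1CC1, ATG2A and VPS13B. ATG2A, BNIP3, MAP1LC3A, RB1CC1, UVRAG and VPS11 were called in fasted vs. fed birds under all 27 alternative analyses, and BNIP3 and UVRAG likewise in insulin-neutralized vs. fasted birds. These alternatives read the same probe set of each gene, so they do not cover the choice of probe set. The other RB1CC1 probe sets were not called in fasted vs. fed birds, nor the second UVRAG probe set in insulin-neutralized vs. fasted birds.

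Genes that act beside the members were read from 5 lists of the same pathways, chosen with earlier results of these data known, with 136 of 187 genes measured. In fasted vs. fed birds 7 were higher and 2 lower (6.62%, beside 10.7% of all genes). Insulin-neutralized vs. fed birds had 0 higher and 1 lower (0.735%, beside 0.595%), and insulin-neutralized vs. fasted birds had 2 higher and 3 lower (3.68%, beside 4.36%). Of 39 further autophagy genes, 1 was called higher in fasted vs. fed birds (2.56%, beside 4.93% of all genes) and 0 lower. That gene, ZFYVE26, needed to rebuild lysosomes after autophagy, was higher in fasted birds by 1.39 (limma adjusted p = 0.0011). It read 7.25 to 8.33 in fed and 9.12 to 9.58 in fasted birds. HSPA8, the chaperone of chaperone-mediated autophagy, was lower in insulin-neutralized birds than in fed birds by 0.51 (limma adjusted p = 0.034) and than in fasted birds by 0.42 (adjusted p = 0.021), with 13.65 to 13.94 in insulin-neutralized birds and no lower than 14.06 in the others. TBC1D14, a regulator of early autophagosome formation, was higher in insulin-neutralized birds than after fasting by 0.56 (limma adjusted p = 0.044).

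Of 25 genes of the nutrient kinases and FOXO factors upstream of autophagy, FOXO3 and PRKAG2 were higher in fasted than in fed birds. With 0 lower, 8.0% of the list was called there, beside 10.7% of all genes. FOXO3, a transcription factor held back by insulin signalling, read 12.68 to 12.72 in fed, 12.73 to 12.95 in insulin-neutralized and 12.87 to 13.12 in fasted birds, a rise of 0.29 in fasted birds (limma adjusted p = 0.020). PRKAG2, a subunit of the energy sensor AMPK, rose by 0.72 (limma adjusted p = 0.031). FOXO1 was lower in insulin-neutralized birds than after fasting by 0.56 (limma adjusted p = 0.045) and differed by 0.41 between fasted and fed birds (adjusted p = 0.091). MTOR and PRKAA1, the catalytic kinases, were not called at -0.17 and 0.60 in fasted vs. fed birds (limma adjusted p = 0.29 for both), and PRKAA2 was not measured here.

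On the sorting side, 1 of 20 ESCRT genes without a VPS symbol was called in fasted vs. fed birds (5.0%, beside 10.7% of all genes). PDCD6IP, the ESCRT partner ALIX, was higher by 0.50 (limma adjusted p = 0.023). Of 36 sorting nexins and tether partners, 8.33% were called in that comparison, beside 10.7% of all genes. SNX9 was higher by 1.39 (limma adjusted p = 0.0081), CCDC53, a subunit of the WASH complex on endosomes, was higher by 0.49 (adjusted p = 0.049), and SNX10 was lower by 0.91 (adjusted p = 0.029). SNX7 was higher by 0.53 in insulin-neutralized birds than after fasting (limma adjusted p = 0.035). Of 17 subunits of the vacuolar proton pump that acidifies the lysosome, ATP6V0A1 was higher by 0.63 in fasted than in fed birds (limma adjusted p = 0.0078) and lower by 0.61 in insulin-neutralized birds than after fasting (adjusted p = 0.019). ATP6V1C2 was lower by 0.42 in fasted vs. fed birds (limma adjusted p = 0.020). In fasted vs. fed birds 11.8% of these subunits were called, beside 10.7% of all genes.

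**Figure D5:**
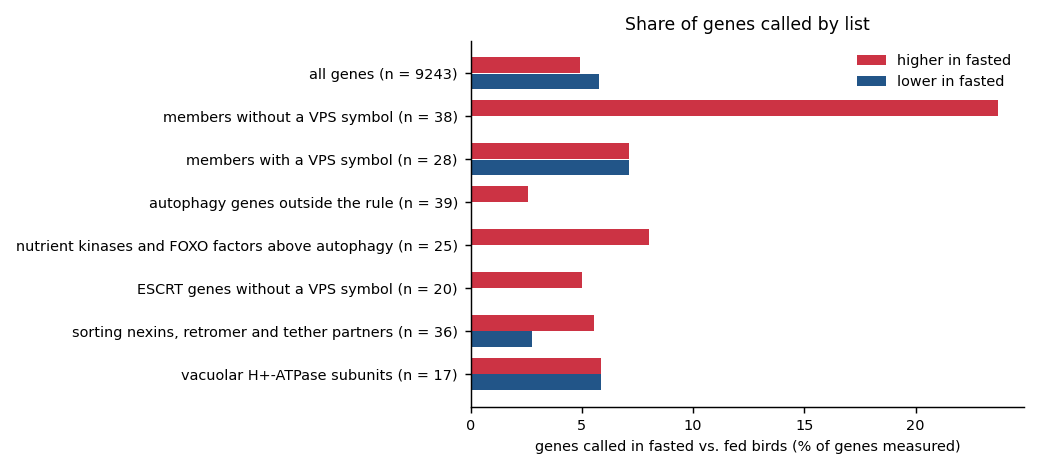
Bars give the percent of measured genes called higher (red) and lower (blue) in fasted vs. fed birds for all genes, members without and with a VPS symbol, and the 5 neighbouring lists. The 38 members without a VPS symbol reach 23.7% higher and 0 lower, against 7.14% each way for the 28 VPS genes and 4.93% and 5.77% over all genes. The 39 autophagy genes outside the rule reach 2.56% higher and 0 lower.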

How the data were processed

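Each bird's adipose RNA was read on 1 array. The authors deposited log2 values made with GCRMA, which corrects background by probe sequence, normalizes across arrays and summarises probes into probe sets. Of tools, R 2.9.0, RMA and GCRMA appear in the submitters' processing notes. The table held 38535 probe sets, of which 96 were controls. No value lay under 2.18, and 18612 probe sets passed the filter of the methods (removed when below 3 on 5 or more arrays). Read the other way, as at least 3 on 5 arrays, it keeps 18919. The number of columns left unused was 0.

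Limma 3.58.1 in R 4.3.3 fitted 1 mean per group over the 15 arrays (12 residual and 2.07 prior degrees of freedom) and adjusted each comparison over all probe sets kept. Adjusted p-values in the text come from this fit or, where stated, from the same fit without the birds named. The median SE was 0.18, and precision is limited by the number of arrays. The fit was tested on simulated data. All 71 symbols matched RefSeq by gene ID, and 0 were changed. Probe sets may also read close paralogs.

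Members, lists of roles, partners and markers, and the naming rule were chosen with earlier results of these data known. Named with values by bird were members called by any probe set and, in roles without a call, the member with the largest change in fasted vs. fed birds. Up to 4 called genes per partner list were named, with MTOR, PRKAA1, PRKAA2, FOXO1 and FOXO3. Alternatives were other filters, normalizations, weights, adjustments, a replicate block, fits of fewer groups, each bird left out, and fed birds 4 and 5 left out. Figures were drawn with matplotlib 3.10.9.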

Additional observations from a re-analysis of the deposited data

Results flagged for a closer look

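Single birds far from the other 4 of their group were sought in 57 groups of 5, over 19 genes, with a gap to the nearest bird above 0.71 of the group's range. This marked 4 groups, and chance marks about 1 in 20 groups. In GABARAPL1, fed bird 2 was low at 3.18, where the other fed birds read 3.92 to 4.10. In MAP1LC3A, fasted bird 1 was low at 12.27, against 12.57 to 12.65. In RB1CC1, insulin-neutralized bird 5 was low at 7.93, against 8.38 to 8.53. In VPS25, fed bird 5 was high at 10.85, against 10.46 to 10.56.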

How the results depend on the processing

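In fasted vs. fed birds, the 13 member genes called became 8 when only those groups were fitted and 10 to 13 without 1 bird. In insulin-neutralized vs. fed birds, the 1 called became 0 without the filter, with arrays centred on their medians, with quantile normalization, with trend and robust moderation, with only those groups fitted and with the replicate block, 3 with array weights or all comparisons adjusted together, 2 with any kept probe set counted, and 0 to 1 without 1 bird. In insulin-neutralized vs. fasted birds, the 7 called became 2 without the filter, 4 with quantile normalization and 2 to 7 without 1 bird, with the lowest count reached without fasted bird 3, 4 or 5 or insulin-neutralized bird 1.

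Of the partner genes, the 9 called in fasted vs. fed birds became 3 with only those groups fitted and 4 to 11 without 1 bird (4 without fasted bird 1). The 1 called in insulin-neutralized vs. fed birds became 0 with quantile normalization, only those groups, the replicate block or without fed birds 4 and 5, 5 with comparisons adjusted together, and 0 to 2 without 1 bird. The 5 called in insulin-neutralized vs. fasted birds became 2 without the filter, 13 with array weights, 3 with the replicate block, 9 without fed birds 4 and 5, and 0 to 6 without 1 bird (0 without fasted bird 4). The cause of these shifts was not tested. Shares over all genes under the alternatives are not given here, so the member and partner counts are no comparison with other genes.

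With the replicate number as a block, 13, 0 and 5 member genes were called in the 3 comparisons, 12, 0 and 4 of them the same genes. VPS25 in fasted vs. fed birds, ULK3 in both other comparisons, and MAP1LC3A and VPS26A against fasted birds then missed the threshold (limma adjusted p = 0.052 to 0.082), and VPS26B passed it in the first and last. By their labels birds share only a number. Deviations of same-numbered birds correlated at -0.39 to 0.38, with 7 of 15 pairs over 0.1. A bird correlated best with its own number in 12 of 30 cases, each a choice among 5 birds. Whether birds were paired was not tested. Of 1501 values of single genes under an alternative, 1320 stayed on the same side of the threshold, 174 were no longer past it and 7 were newly past it. This tally holds only member genes already called by a kept probe set in some comparison. New calls of other members, such as ATG13, BECN1, VPS35, WIPI2 and VPS26B above, are therefore not among the 7. In these genes called differences kept their sign in all 853 of theirs, and 4 uncalled differences of at most 0.10 changed sign in 16 values. Larger uncalled differences of other members changed sign too. Without fed birds 4 and 5, that of BECN1 in insulin-neutralized vs. fed birds went from 0.29 to -0.17. That of VPS16 in fasted vs. fed birds went from -0.26 to 0.07. Half-widths of 95% intervals had a median of 0.296, and values near the floor, as in GABARAPL1, limit what the arrays can show.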
